A study of Bos taurus with 20 samples.

Results

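Cytosolic ribosomal proteins are the proteins of the large and the small subunit of the ribosome that works in the cytoplasm. Their genes were taken as the array rows whose annotated symbol is RPL or RPS with a number and at most one of the letters A, X, Y or L, or is RPSA, RPLP0, RPLP1 or RPLP2. RPL3, RPL3L and the RPS6K kinases were left out, and a gene with several rows was described through the row with the highest mean. The rule found 59 genes among 11329 genes named on the array, 34 of the large subunit and 25 of the small subunit. A current cattle gene table holds 77 protein-coding symbols that match the rule, and 18 of them were not analysed here. The rule itself uses names and mean levels only, and no difference between ages or crosses, but it was set with earlier results of these data known.

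A ribosome carries 1 copy of almost every ribosomal protein, so cells keep the production of these proteins in step with one another and with ribosomal RNA. The mRNAs of ribosomal proteins share a pyrimidine-rich start, the TOP motif, through which growth signals acting by the kinase mTOR switch their translation on and off. In growing skeletal muscle new ribosomes are made to support the gain of protein, and the amount of ribosome production is known to fall as growth slows.

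RNA was measured in the longissimus dorsi, the muscle that runs along the spine, in offspring of Piedmontese by Hereford matings and of Wagyu by Hereford matings. Piedmontese cattle are known for an inactive form of myostatin and heavy muscling, and Wagyu cattle for fat within the muscle. Each cross was sampled at 60, 135, 195 and 280 days of gestation and at 3, 7, 12, 20, 25 and 30 months after birth. The deposited table has 20 columns, 1 for each cross at each age, and a column represents 3 fetal or 4 postnatal animals. The 2 crosses therefore stand as the 2 samples of an age. The 72 samples of animals behind the columns were run on 36 two-colour arrays on 9 slides, each array holding both crosses at 1 age in opposite dyes. The 2 columns of an age thus share arrays. What an array adds to both crosses is not part of the standard errors of age differences, which may be too small. The fetal ages were on 3 slides, 3 to 20 months on 4 others and 25 and 30 months on the last 2, so a change across birth and a change of slides cannot be told apart. The median over the 7 muscle markers DES, MYH1, MYH2, MYH7, CKM, ACTA1 and TNNT3 lay between 19.30 and 20.11 in the postnatal columns and between 14.76 and 19.92 in the fetal columns, so markers of skeletal muscle were present at every age. Values are on the deposited scale, read here as log2. Its base and normalisation are not stated, and its highest value (21.75) is above the log2 of a scanner's largest signal, so the size of a unit in fold is unknown. A difference is in these units, and a number after ± is the standard error of a limma estimate.

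On the deposited scale the median of the ribosomal protein genes lay between 18.72 and 19.54 in the fetal columns and between 17.56 and 18.23 in the postnatal columns. In the Piedmontese columns the median over the 59 genes was 18.99, 19.54, 19.14 and 18.73 at 60, 135, 195 and 280 days and 17.96, 18.23, 17.96, 17.56, 17.61 and 18.09 at 3, 7, 12, 20, 25 and 30 months. In the Wagyu columns it was 19.46, 18.94, 18.72 and 19.34 before birth and 17.87, 17.86, 18.12, 17.73, 18.11 and 18.01 after it. Every postnatal median was therefore below every fetal median, in both crosses, although the median also moved before birth, by as much in Piedmontese from 135 to 280 days as across birth. Over the 10 age means, 54 of the 59 genes followed the family median with a Pearson r of at least 0.9, a description over ages that share columns and slides. That median is made from these genes, and shifts of whole columns move all rows together. The share of all rows was not computed for this count, nor for the counts of steps and ages given next. The 5 that did not were RPS27L (r = -0.71), RPS27 (0.27), RPL15 (0.81), RPL10L (0.82) and RPS26 (0.88). In 57 of the 59 genes the step across birth was the lowest of the 9 steps between neighbouring ages. The exceptions were RPS27L and RPS29, whose lowest step was from 12 to 20 months (-0.43 and -0.61). The highest age mean fell at 60 days for 20 genes, at 135 days for 20, at 195 days for 2, at 280 days for 16 and at 12 months for 1, RPS27L. The lowest fell at 20 months for 37 genes and at 25 months for 9, which are neighbours on different slides.

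**Figure D1:**
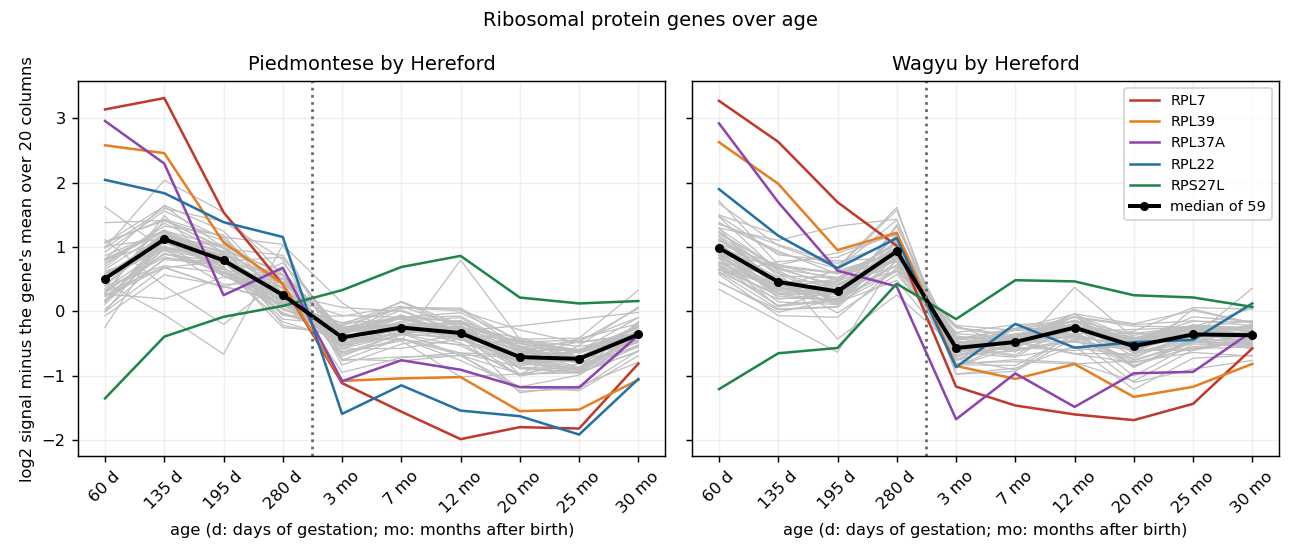
Each line is 1 of the 59 ribosomal protein genes, drawn as its log2 signal minus its own mean over the 20 columns, against age (equally spaced, d for days of gestation, mo for months after birth), with Piedmontese left and Wagyu right. The black line is the median of the 59 genes, coloured lines are 5 genes described in the text, and the dotted line marks birth, where all 59 lines drop in Wagyu and 58 in Piedmontese, the exception there being RPS27L.

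The mean of the 6 postnatal ages was compared with the mean of the 4 fetal ages to size the drop. It was lower after birth for 58 of the 59 genes and higher for 1, RPS27L, against 51.3% of all rows lower and 22.2% higher. The median difference was -1.06 over the family and -0.30 over all rows. In 46 of the 59 genes (78%) all 12 postnatal columns lay below all 8 fetal columns, which was the case for 5.6% of all rows. No gene had all postnatal columns above all fetal ones, against 4.34% of all rows. The 13 genes whose columns overlapped were RPL10L, RPL15, RPL27A, RPL30, RPS2, RPS15, RPS21, RPS25, RPS26, RPS27, RPS27L, RPS28 and RPS29. With quantile normalisation 57 genes were lower and 2 higher, and with each column centred on its median 47 were lower and 2 higher, the 2 being RPS27L and RPS27 both times. Those scalings moved the median of all rows to 0.00 and 0.32, and the median of the family was then -1.19 and -0.44. The shares of all rows that passed under them were not computed. Among the 187 other rows with a mean of at least 17, 66.8% were higher and 21.4% lower after birth. In bulk muscle, a smaller share of the cells that carry these mRNAs and less mRNA per cell cannot be told apart.

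Between 60 and 280 days few of the genes passed, and those that did moved far apart from one another. At 280 days 4 genes were higher and 5 lower than at 60 days, against 18.6% of all rows higher and 42.4% lower. The median difference was -0.16 over the family and -0.34 over all rows. Of the 187 other rows with a mean of at least 17, 65.8% were higher and 5.88% lower. RPL7, RPL37A and RPL39, all of the large subunit, fell by 2.49 ± 0.25 (adjusted p = 1.35e-07), 2.41 ± 0.26 (adjusted p = 3.35e-07) and 1.78 ± 0.25 (adjusted p = 6.13e-06). RPS26, which sits where the mRNA leaves the small subunit, fell by 1.14 ± 0.28, and RPS21 by 0.79 ± 0.26. With each column centred on its median RPS26 had a change of 0.09 (adjusted p = 0.746), and RPS21 rose by 0.44 (adjusted p = 0.0384). RPS27L, a paralog of RPS27 that is known in human cells as a p53 target, rose by 1.54 ± 0.23 (adjusted p = 1.36e-05). RPS9 (0.62 ± 0.24), RPL36A (0.57 ± 0.24) and RPS27 (0.54 ± 0.20) rose too, but RPS9 and RPL36A did not pass without the Piedmontese 60-day or the Wagyu 280-day column.

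How many ribosomal protein genes moved before birth depended on the scaling of the columns, whose medians over all rows lay between 5.88 and 7.36. With quantile normalisation 4 genes were higher and 44 lower, and with each column centred on its median 54 were higher and 3 lower. The median of all rows was 0.15 and 0.89 in those fits, and that of the family -0.69 and 1.07. The shares of all rows that passed in them were not computed. In all 3 scalings 5 genes passed the same way, RPL7, RPL37A and RPL39 lower and RPS27L and RPS27 higher. RPS27 was higher by 1.14 with quantile normalisation (adjusted p = 4.94e-05) and by 1.77 with centred columns (adjusted p = 2.38e-06). Of the 59 genes 51 changed sign between scalings, so their direction before birth is not settled by these values.

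Across birth 44 of the 59 genes fell and none rose. The value at 3 months was set against that at 280 days, and 14.8% of all rows were lower and 13.8% higher in that comparison. The median change was -1.08 over the family, with a range of -2.38 to -0.15, and -0.14 over all rows. It was -0.73 within the Piedmontese columns and -1.47 within the Wagyu columns, and 58 genes had a lower value at 3 months in both crosses. The exception was RPS27L, which was 0.25 higher in Piedmontese and 0.55 lower in Wagyu. In the large subunit 28 of 34 genes fell, with a median of -1.30, and in the small subunit 16 of 25 fell, with a median of -1.01. The difference between the subunits was not tested.

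Genes named for a place in the ribosome are given next, whether or not they passed. RPL10A, the protein of the L1 stalk that guides the used tRNA out, was at 16.95 in Piedmontese and 16.90 in Wagyu at 3 months, against 18.76 and 19.29 at 280 days, and fell by 2.10 ± 0.25 (adjusted p = 1.99e-05). Of the other stalk, which recruits the elongation factors, RPLP0 was at 19.60 in Piedmontese and 19.21 in Wagyu at 3 months, against 19.89 and 20.63 at 280 days, and fell by 0.85 ± 0.30 (adjusted p = 0.0433). RPLP2 of the same stalk did not pass (-0.93 ± 0.35, adjusted p = 0.0537). Of the pair that travels with 5S ribosomal RNA and can bind MDM2, RPL5 fell by 1.39 ± 0.25 (adjusted p = 0.000698) and RPL11 did not pass (-0.67 ± 0.26, adjusted p = 0.066). Around the tunnel through which the new protein leaves, RPL39, RPL26 and RPL23A fell by 1.79 ± 0.25, 1.44 ± 0.26 and 1.19 ± 0.25.

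In the small subunit RPS19, whose loss causes Diamond-Blackfan anaemia in humans, stood at 15.04 in Piedmontese and 14.90 in Wagyu at 3 months, against 16.67 and 17.30 at 280 days. It fell by 2.02 ± 0.25 (adjusted p = 3.08e-05), the largest fall of the subunit. RPS3, at the entry of the mRNA channel, fell by 1.33 ± 0.27 (adjusted p = 0.00162), while its neighbour RPS2 did not pass (-0.60 ± 0.27, adjusted p = 0.106). RPS26 and RPS28, at the exit of that channel, fell by 1.02 ± 0.28 and 1.27 ± 0.33. RPSA, also known as a laminin receptor, did not pass (-0.75 ± 0.32, adjusted p = 0.088).

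The 15 genes that did not pass at birth were RPLP2, RPL10L, RPL11, RPL21, RPL27A, RPL30, RPSA, RPS2, RPS10, RPS12, RPS15, RPS21, RPS23, RPS27L and RPS29. Each of them had an estimate below 0, from -0.93 for RPLP2 to -0.15 for RPS27L. Shares of all rows were not computed for the alternative fits that follow. The median of all rows at birth was -0.06 with quantile normalisation and -0.27 with centred columns. The count of falling genes was 49 with quantile normalisation and 56 with centred columns. It was 23 without the Wagyu 280-day column and 24 without the Wagyu 3-month column, and 54 and 36 without the Piedmontese columns of those ages. In all 10 settings 21 genes fell, among them RPL22, RPL10A, RPL13, RPL7, RPL39, RPL37A, RPL35A, RPL5, RPL26, RPS19, RPS9, RPS3 and RPS27, and the other 8 were RPL6, RPL9, RPL15, RPL23A, RPL27, RPL34, RPL36A and RPL37.

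**Figure D2:**
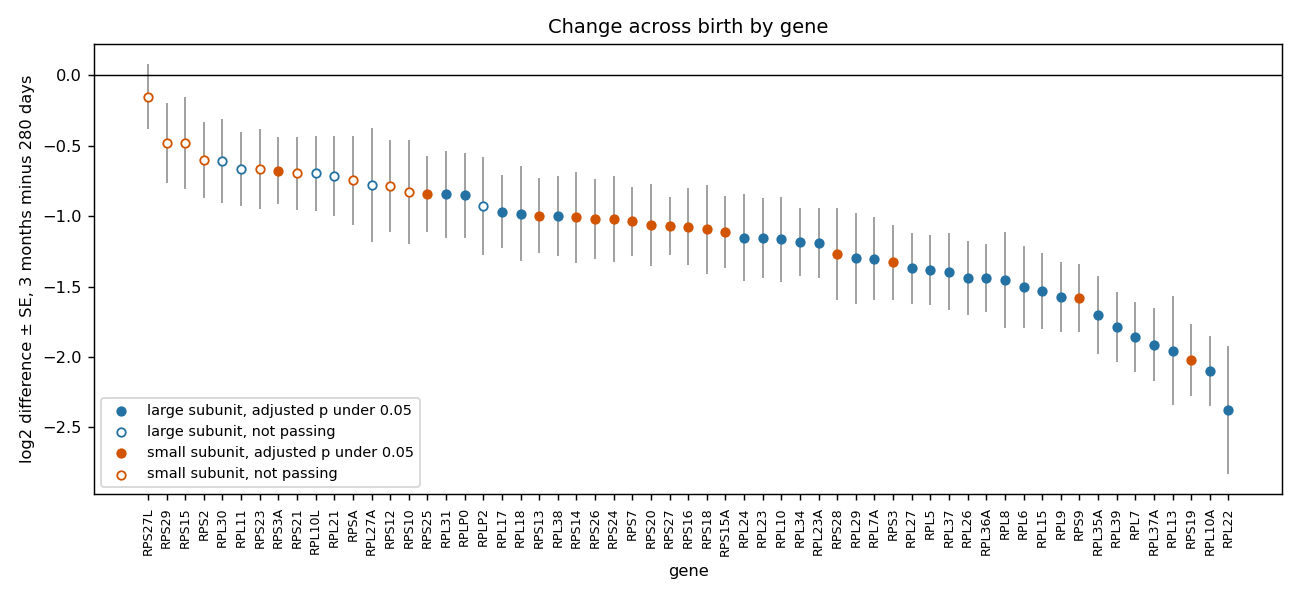
Points give the log2 difference of 3 months minus 280 days for each of the 59 genes, ordered along the horizontal axis from RPS27L to RPL22, with bars of 1 standard error, large subunit in blue and small subunit in orange. Filled points have an adjusted p under 0.05 (44 genes); all 59 points lie below 0, from -0.15 to -2.38.

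Most bright rows outside the family passed in neither direction across birth. Of the 59 genes 43 had a mean of at least 17, and 31 of these (72.1%) fell at birth, with a median of -1.02. Among the 187 other rows with a mean of at least 17, 10.7% fell and 10.2% rose, with a median of -0.04. The 16 ribosomal protein genes with a mean under 17 included 13 that fell, with a median of -1.41. Of these 16 genes 6 had a mean under 12, and 5 of the 6 fell, with a median of -1.82. Across the 59 genes the mean level and the change at birth had a Spearman rho of 0.36 and a Pearson r of 0.32, a description over genes that share the same columns.

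Genes that work beside the ribosomal proteins were described through lists of the genes of each step. Of 13 other genes with TOP mRNAs 10 fell across birth and none rose, with a median of -1.26. EEF1B2, a subunit of the exchange factor for elongation factor 1, fell by 2.06 ± 0.25 (adjusted p = 2.14e-05) and PABPC1, the poly(A)-binding protein, by 1.82 ± 0.28. NAP1L1 (-0.38 ± 0.23) and EIF3F (-0.58 ± 0.26) did not pass. NAP1L1 had already changed by -3.3 ± 0.23 from 60 to 280 days, and by -2.16 over the stage means. EIF3F, and RACK1 among the genes that fell, had means of 4.71 and 4.08, under the lowest median of a column (5.88). Of 31 ribosome biogenesis genes 24 fell and 2 rose, with a median of -1.42. RRS1 of the nucleolus fell by 2.59 ± 0.24 and GNL3 (nucleostemin) fell by 2.455 ± 0.26, while LYAR and UTP15 rose by 1.20 ± 0.28 and 0.85 ± 0.23. The falls of RRS1 and GNL3 followed rises of 2.82 ± 0.24 and 3.015 ± 0.26 from 195 to 280 days. Other genes of the list also rose in that step, among them WDR12 (1.82 ± 0.30), NHP2 (1.81 ± 0.23) and NOP2 (1.44 ± 0.23). LYAR went the other way (-1.26 ± 0.28), and the genes on each side were not counted. The median of the ribosomal protein genes changed by 0.07 in that step. For the genes that rose, the change across birth thus started from a raised level at 280 days. Over the stage means RRS1 was lower after birth by 0.93 and GNL3 by 0.57. Of the 31 genes 22 were lower and 5 higher over the stage means, 15 and 10 with quantile normalisation, and 14 and 11 with centred columns. Before birth these biogenesis genes had gone mostly the other way, with 15 higher and 3 lower at 280 days than at 60 days, in a comparison whose counts move with the scaling.

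Upstream of the ribosome, 3 of 7 genes of the RNA polymerase I machinery, which makes ribosomal RNA, fell across birth and none rose. They were POLR1E (-1.54 ± 0.22), POLR1A (-1.03 ± 0.26) and RRN3 (-0.95 ± 0.23), and TAF1B had the highest value (0.14 ± 0.24). With quantile normalisation 4 of the 7 fell, and with centred columns 6. Of 9 genes that control growth and translation, 1 fell, MYC, by 3.10 ± 0.46 (adjusted p = 0.000144), and 0 rose. MYC is a transcription factor known to raise ribosome production. RPTOR and RHEB of the mTOR pathway did not pass (-0.43 ± 0.22 and -0.33 ± 0.25). Of these 9 genes 3 fell with quantile normalisation and 4 with centred columns, and 0 rose.

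Of 57 genes of the mitochondrial ribosome, which is built from other proteins, 6 fell and 6 rose across birth, with a median of -0.17. On the deposited scale neither share was above that of all rows (14.8% lower and 13.8% higher). That balance depended on the scaling: 15 fell and 9 rose with quantile normalisation, and 21 fell and 8 rose with centred columns. MRPL14 fell by 1.03 ± 0.23 and MRPL50 by 1.002 ± 0.22, and MRPL27 and MRPL49 rose by 1.39 ± 0.25 and 1.12 ± 0.22. Over the means of the stages 40 of these 57 genes were higher after birth and 7 lower, against 22.2% of all rows higher and 51.3% lower, and 58 of the 59 cytosolic genes were lower. The difference between the 2 families was not tested as such.

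**Figure D3:**
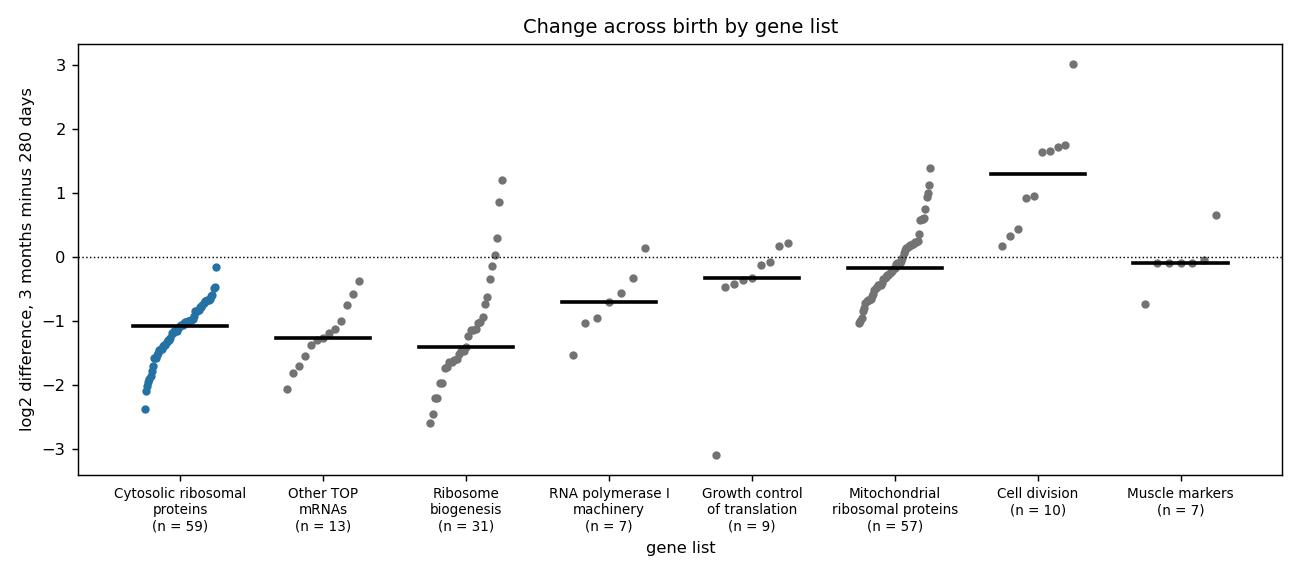
Each point is a gene, drawn as the log2 difference of 3 months minus 280 days (vertical axis) in 8 gene lists (horizontal axis), and the bar is the list's median. The cytosolic ribosomal proteins (blue, median -1.08), the other TOP mRNAs (-1.26) and the ribosome biogenesis genes (-1.42) lie mostly below 0, while the mitochondrial ribosomal proteins (-0.17) and the muscle markers (-0.09) lie around it.

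Markers of other cells and of division also moved across birth. None of the 7 muscle markers passed, with a median of -0.09. Genes of cell division rose in 7 of 10, macrophage markers in 6 of 7, fibroblast and matrix genes in 4 of 7, and erythroid and adipocyte markers in 2 of 7 each, and none of these lists had a gene that fell on the deposited scale. From 60 to 280 days all 10 division genes had fallen (median -7.74), with all 7 matrix genes (-4.33) and all 7 macrophage markers (-1.34). Over the stage means 8 division and 7 matrix genes were lower after birth and 0 higher. The median of the division genes lay between 3.39 and 5.25 in the postnatal columns, under the lowest median of a whole column (5.88). Lymphocyte markers rose in 5 of 9 and fell in 1, CD79A. As the log2 of the summed signal, macrophage markers lay between 13.10 and 14.20 in the postnatal columns and between 12.08 and 15.48 in the fetal columns. Lymphocyte markers lay between 13.50 and 14.39 in the postnatal columns and between 12.66 and 13.74 in the fetal columns. The range of the division genes was 9.14 to 10.03 in postnatal columns and 9.17 to 15.36 in fetal columns, and that of the matrix genes 15.68 to 17.37 in postnatal columns and 15.73 to 20.30 in fetal columns. The range of the erythroid genes was 8.72 to 14.65 in postnatal columns and 11.21 to 20.68 in fetal columns, and that of the adipocyte genes 12.86 to 16.25 in postnatal columns and 9.39 to 14.62 in fetal columns. Under other scalings the erythroid list had 0 genes higher and 0 lower (quantile normalisation) or 1 and 1 (centred columns), and the adipocyte list 3 and 1 or 2 and 1. The table has no background measure, so the absence of a marker cannot be read from it. The part of these cells in the change of the ribosomal protein genes was not tested.

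From 3 to 30 months the lower level was kept, with a single call. At 30 months 1 of the 59 genes was higher than at 3 months and 0 were lower, against 18.4% of all rows higher and 3.49% lower. At an unadjusted p under 0.05 there were 4 genes. Here and below, the share of all rows at that unadjusted threshold was not computed. The median difference was 0.12 over the family and 0.31 over all rows, and of the 187 other bright rows 3.21% were higher and 3.21% lower. The 1 gene was RPL37A, at 10.33 in Piedmontese and 10.39 in Wagyu at 30 months, against 9.61 and 9.02 at 3 months. It was higher by 1.04 ± 0.26 (adjusted p = 0.0112), but without the Wagyu 3-month column by 0.79 (adjusted p = 0.179) and without the Wagyu 30-month column by 0.93 (adjusted p = 0.124).

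RPL7, RPL37A and RPL39 left the family median before birth as well, and their whole course is therefore given. Their rows were dim for the family, with means of 11.19, 10.70 and 11.52, while 43 of the 59 genes had a mean of at least 17. Whether the low signal had a part in their departure was not tested. RPL7, an RNA-binding protein of the large subunit, was at 14.33, 14.50, 12.73 and 11.60 in the Piedmontese fetal columns and at 10.07, 9.63, 9.20, 9.39, 9.37 and 10.38 in the postnatal ones. In Wagyu it was at 14.46, 13.82, 12.88 and 12.21 before birth and at 10.02, 9.73, 9.59, 9.50, 9.75 and 10.61 after it. Its age means spanned 4.998 log2 units, the widest range of the 59 genes, and it was lower after birth by 3.55 ± 0.11 (adjusted p = 2.74e-14). RPL7 fell in each of the last 2 fetal steps, by 1.36 ± 0.25 from 135 to 195 days and by 0.90 ± 0.25 from 195 to 280 days, the second of which did not pass with quantile normalisation (adjusted p = 0.0671) or centred columns (adjusted p = 0.428).

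RPL37A, a zinc-binding protein of the large subunit, was at 13.66, 12.99, 10.95 and 11.38 in the Piedmontese and at 13.62, 12.39, 11.33 and 11.08 in the Wagyu fetal columns. After birth it ran between 9.52 and 10.33 in Piedmontese and between 9.02 and 10.39 in Wagyu. It fell by 0.94 ± 0.26 from 60 to 135 days, which did not pass with centred columns (adjusted p = 0.0529), and by 1.55 ± 0.26 from 135 to 195 days (adjusted p = 0.000742). RPL39, the small protein in the wall of the exit tunnel, was at 14.10, 13.98, 12.59 and 11.95 in the Piedmontese and at 14.15, 13.50, 12.47 and 12.74 in the Wagyu fetal columns. After birth it ran between 9.97 and 10.50 in Piedmontese and between 10.19 and 10.70 in Wagyu, and its fall from 135 to 195 days was 1.21 ± 0.25 (adjusted p = 0.00322). No column of RPL7, RPL37A or RPL39 after birth reached the lowest one before birth.

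These 3 were all the genes that fell from 135 to 195 days, against 9.48% of all rows, and 0 rose, against 5.47%. From 60 to 135 days RPL37A was the 1 gene that fell and RPS27L the 1 that rose (0.76 ± 0.23), against 12% and 7.56% of all rows. From 195 to 280 days RPL7 was the 1 gene that fell, against 33.6% of all rows. The 4 that rose in that step, against 14.2% of all rows, were RPS27 (1.59 ± 0.20), RPL15 (0.99 ± 0.27), RPL36A (0.80 ± 0.24) and RPS27L (0.58 ± 0.23). After birth RPS27 accounted for every call in the 5 steps. None of the 59 genes passed from 3 to 7 months (0.484% of all rows higher, 0.782% lower), from 20 to 25 months (8.71% higher, 0.261% lower) or from 25 to 30 months (2.19% higher, 0.619% lower). At an unadjusted p under 0.05 these steps had 1, 0 and 3 genes. From 12 to 20 months, ages on the same slides, 6 genes had an unadjusted p under 0.05. In that step 54 of the 59 estimates were below 0, and 51 genes were lower in both crosses. The median change was -0.31 over the family and -0.21 over all rows. The shares of all rows for these counts were not computed.

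**Figure D4:**
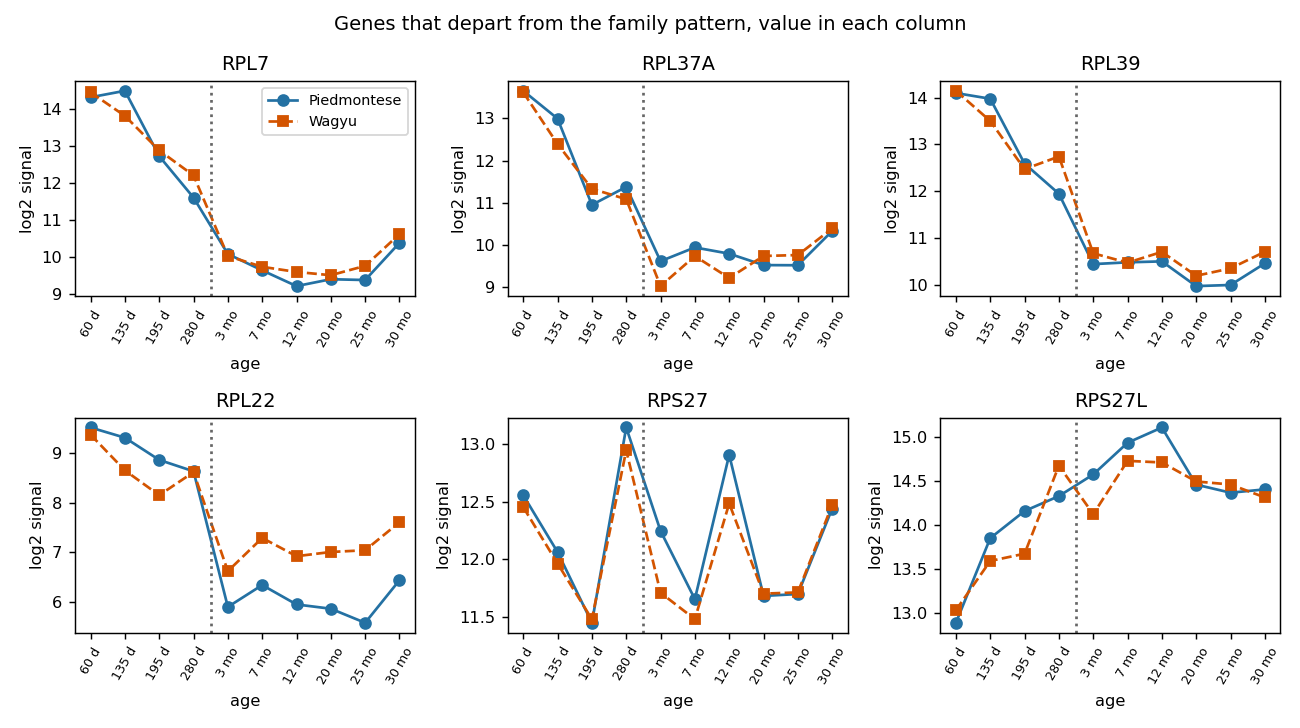
Each panel plots 1 gene, with the log2 signal on the vertical axis (each panel with its own range), age on the horizontal axis, Piedmontese as blue circles and Wagyu as orange squares, 1 point per column and a dotted line at birth. RPL7, RPL37A and RPL39 fall through gestation, RPL22 parts by cross after birth, RPS27 goes up and down in both crosses, and RPS27L runs upward before birth.

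The pair RPS27 and RPS27L went apart from the family in different ways. RPS27, a zinc-binding protein of the small subunit, was at 12.56, 12.06, 11.45 and 13.15 in the Piedmontese fetal columns and at 12.25, 11.65, 12.91, 11.68, 11.70 and 12.44 in the postnatal ones. In Wagyu it was at 12.45, 11.96, 11.48 and 12.95 before birth and at 11.71, 11.48, 12.48, 11.70, 11.71 and 12.47 after it, so that both crosses had the same peaks at 280 days and 12 months. Both crosses shared their arrays at each age. For RPS27 the fits gave these steps. The fall of RPS27 across birth was 1.07 ± 0.20 (adjusted p = 0.0011). It rose by 1.13 ± 0.20 from 7 to 12 months (adjusted p = 0.0108), against 1.07% of all rows higher and 0.587% lower. It fell by 1.01 ± 0.20 from 12 to 20 months (adjusted p = 0.0162), against 1.95% of all rows lower and 0.34% higher, a fall that did not pass with quantile normalisation (adjusted p = 0.0638) or centred columns (adjusted p = 0.0703). Over the stage means RPS27 was lower after birth by 0.24 ± 0.09 (adjusted p = 0.0268), but higher by 0.21 with quantile normalisation and by 0.38 with centred columns, so its direction there is not settled.

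RPS27L was at 12.89, 13.85, 14.16 and 14.33 in the Piedmontese fetal columns and at 14.58, 14.94, 15.11, 14.46, 14.37 and 14.41 in the postnatal ones. In Wagyu it was at 13.04, 13.60, 13.68 and 14.68 before birth and at 14.13, 14.73, 14.71, 14.50, 14.46 and 14.32 after it. It was higher after birth by 0.78 ± 0.10 (adjusted p = 2.63e-06), the opposite of the other 58 genes, and by 0.95 with quantile normalisation and 1.4 with centred columns. In Piedmontese every postnatal column was above every fetal one, while the Wagyu column at 280 days was above 4 of the 6 Wagyu postnatal columns.

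RPL10L, which in mice and humans is a testis copy of RPL10, lay between 3.64 and 4.90 in the 20 columns, under the median of every column, and did not pass at birth (-0.70 ± 0.26, adjusted p = 0.0562). RPL10 itself, added late in the making of the large subunit, fell by 1.17 ± 0.30 (adjusted p = 0.00948). Of 6 genes outside the rule that are related by name or sequence to ribosomal proteins, 3 fell at birth and 0 rose: RPL7L1 (-1.44 ± 0.25), RPS4Y1 (-1.32 ± 0.23) and RSL1D1 (-1.17 ± 0.28). RPL26L1 did not pass there (-0.45 ± 0.23), though it was lower after birth than before it by 1.73 over the stage means (adjusted p = 9.57e-11).

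To ask which genes left the family, every column was also expressed against the median of the 59 genes in it and all rows were fitted again. At birth 9 of the 59 fell further than that median and 8 fell less, against 1.08% of all rows lower and 70% higher. The 9 were RPL22 (-1.25 ± 0.46), RPL10A (-0.98 ± 0.19), RPS19 (-0.90 ± 0.19), RPL13, RPL37A, RPL7, RPL39, RPL35A and RPS9. The 8 were RPS27L (0.97 ± 0.22), RPS29 (0.64 ± 0.18), RPS15 (0.64 ± 0.18), RPS2, RPL30, RPL11, RPS23 and RPS21. Of the 9 that fell further 7 belong to the large subunit, and of the 8 that fell less 6 belong to the small subunit. The family has 34 genes of the large and 25 of the small subunit, and the split was not tested.

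Against the family median, 8 genes rose and 5 fell from 60 to 280 days (21.9% and 36.5% of all rows), and 0 passed from 3 to 30 months by limma (6.41% higher and 3.31% lower). RPL7 (-2.30 ± 0.23), RPL37A (-2.21 ± 0.33) and RPL39 (-1.59 ± 0.21) led the falls before birth. Over the stage means 23 were higher and 17 lower than the family after birth, against 73.2% and 14.2% of all rows. RPS27L (1.96 ± 0.10), RPS27 (0.94 ± 0.14) and RPS2 (0.70 ± 0.08) were the highest, and RPL7 (-2.37 ± 0.10), RPL39 (-1.59 ± 0.10) and RPL37A (-1.28 ± 0.15) the lowest. The family median is made from these genes, so some must lie on each side of it.

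The genes that varied least over age were RPS2, RPL10L, RPS3A, RPS25 and RPL18, whose age means spanned 0.64, 0.85, 0.93, 0.96 and 0.99 log2 units. RPS2, which lines the entry of the mRNA channel, lay between 19.41 and 20.13 in the fetal columns and between 18.99 and 19.54 in the postnatal columns. RPS3A, RPS25 and RPL18 fell at birth nonetheless, by 0.68 ± 0.24, 0.85 ± 0.27 and 0.98 ± 0.34. At the other end RPL7, RPL37A, RPL39, RPL22 and RPL13 spanned 4.998, 4.32, 4.04, 3.20 and 2.67. RPL13, a large-subunit protein, was at 17.21 in Piedmontese and 16.99 in Wagyu at 3 months, against 18.52 and 19.58 at 280 days.

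Where a gene had more than 1 row the rows agreed on birth. The 3 rows of RPL15 had changes of -1.53, -1.44 and -1.62, and the 2 rows of RPS3A -0.68 and -0.95, all with an adjusted p under 0.05.

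Over all ages no gene separated Piedmontese from Wagyu. None of the 59 genes passed for Piedmontese minus Wagyu over the 10 ages, against 0.0652% of all rows higher and 0.214% lower, and 1, RPL22, had an unadjusted p under 0.05. The median difference was -0.02, and of the 187 other bright rows 0% were higher and 1.6% lower. Against the family median 0 of the 59 passed as well (0.0605% of all rows higher, 0.0512% lower). RPL7 differed by -0.14 ± 0.11 (adjusted p = 0.853), RPLP0 by 0.08 ± 0.13 and RPSA by -0.15 ± 0.14. At single ages the crosses did part, in a way that ran through the whole family. The median difference was -0.42, 0.60, 0.41 and -0.67 at 60, 135, 195 and 280 days, and 0.16, 0.24, -0.04, -0.13, -0.37 and -0.01 at 3, 7, 12, 20, 25 and 30 months. All 59 genes were higher in Piedmontese at 135 days, with 76.5% of all rows, and all 59 were lower at 25 months, with 76.8% of all rows. The median of all rows was shifted the same way, by 0.25 at 135 days and by -0.18 at 25 months.

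Those swings went with the dyes before birth. At 60 and 280 days, where the family was lower in Piedmontese, 2 of the 3 Piedmontese samples carried Cy3, and at 135 and 195 days, where it was higher, 2 of the 3 carried Cy5. A cross difference at a fetal age and the dyes therefore cannot be told apart, and each age as a whole was balanced over the dyes. The other rows with a mean of at least 17 had medians of -0.42, 0.02, 0.28 and -0.49 at the fetal ages. After birth, with 2 samples in each dye, they had 0.16, 0.34, -0.21, -0.21, -0.33 and 0.02, close to the values of the family.

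**Figure D5:**
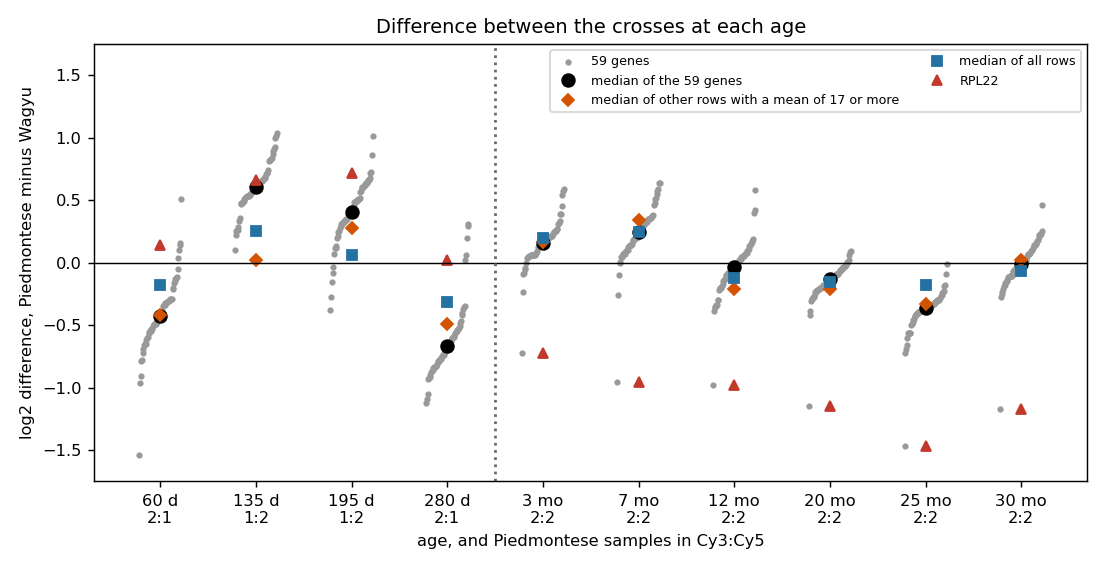
The vertical axis is the log2 difference of Piedmontese minus Wagyu at each age (horizontal axis, with the number of Piedmontese samples in Cy3 and Cy5 under it). Grey points are the 59 genes, black circles their median, orange diamonds the median of the other rows with a mean of at least 17 and blue squares the median of all rows. Red triangles are RPL22, which lies at 0.02 to 0.71 at the 4 fetal ages and at -0.73 to -1.47 at the 6 postnatal ages.

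RPL22 was the 1 gene whose cross difference changed with stage. RPL22 binds RNA on the outer face of the large subunit, and mice can do without it in most tissues. It was at 9.53, 9.32, 8.87 and 8.64 in the Piedmontese fetal columns and at 5.89, 6.33, 5.94, 5.85, 5.57 and 6.43 in the postnatal ones. In Wagyu it was at 9.38, 8.66, 8.15 and 8.62 before birth and at 6.62, 7.29, 6.92, 7.00, 7.04 and 7.61 after it. Piedmontese was thus above Wagyu at 4 of 4 fetal ages and below it at 6 of 6 postnatal ages, and the postnatal columns of the crosses did not overlap. The fetal differences were 0.145, 0.662, 0.715 and 0.017 at 60, 135, 195 and 280 days, so the last was close to 0. At 135 and 195 days the family median was also higher in Piedmontese, by 0.60 and 0.41. The difference between the stages was -1.46 ± 0.22 (adjusted p = 0.027), which 0.00931% of all rows reached as lower and 0.00931% as higher.

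The RPL22 result is at the edge of what these columns can show. Over the alternatives the difference between stages lay between -1.58 and -1.35 and its adjusted p between 0.00791 and 0.159. It did not pass with a trended robust prior (adjusted p = 0.159), or without 7 (0.0603), 12 (0.0743), 20 (0.0937), 25 (0.114) or 30 months (0.0558), and against the family median it gave -1.43 ± 0.20 (adjusted p = 0.0564). At the postnatal ages alone, an alternative added after the values were seen, RPL22 was lower in Piedmontese by 1.08 ± 0.11 (adjusted p = 0.000214). Because those ages were picked from the same values, that p-value is not an independent test. RPL22 also fell furthest of the 59 genes at birth, by 2.38 ± 0.45 (adjusted p = 0.00111), by 2.75 in Piedmontese and 2.01 in Wagyu, and its Piedmontese postnatal values lay near the median of all rows, which was between 5.98 and 6.35 at those ages.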

How the data were processed

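The authors' deposited table holds 21475 rows by 20 columns, read as log2 values from their range of -0.64 to 21.75. Scans were read with Agilent Feature Extraction 8.5.1.1, per the submitters' processing notes. The normalisation, the base of the logarithm and how the 3 (fetal) or 4 (postnatal) animals of a column were combined were not stated, so differences are in units of the deposited scale and not folds. The highest values exceed the log2 of a scanner's largest signal, and would exceed its natural log by more, so the scale may hold a further step. Platform annotation named 12276 rows, and the symbols of all 59 members were found in the RefSeq table ARS-UCD2.0.

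limma 3.58.1 in R 4.3.3 was fitted to all rows with age (10 levels) and cross, leaving 9 residual degrees of freedom. Cross by stage was fitted to the 10 within-age differences. Benjamini-Hochberg adjustment ran over all rows, and an adjusted p under 0.05 passed. The fits treat the columns as independent, which the labels do not state, and use 1 residual spread for all ages. Both columns of an age came from the same arrays. An effect that an array adds to both crosses stays in the age estimates but not in the residual. The standard errors and p-values of age differences may therefore be too small. The members, lists and the naming rule (the 3 largest passing changes in each direction, the 5 widest and narrowest ranges, RPL7, RPL22, RPSA and the P proteins, paralogs, and up to 2 genes at each end of a list) were chosen with earlier results of these data known. Genes named for a role in the ribosome were added after their values were seen. Alternatives were quantile normalisation, column centring, leaving out the 25% of rows with the lowest mean, a trended robust prior, averaged rows of a gene, and each column or age left out. Scripts were tested on simulated data. Tables and figures used Python 3.11.15, pandas 2.3.3, numpy 2.4.6 and matplotlib 3.10.9.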

Additional observations from a re-analysis of the deposited data

Results flagged for a closer look

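RPL22 stood out because its cross difference turned with stage: the postnatal minus fetal value of Piedmontese minus Wagyu was -1.46 (adjusted p = 0.027). Several steps had family medians of opposite sign in the crosses, and the difference between the crosses was not tested for any of them. From 60 to 135 days the median change of the 59 genes was 0.57 in Piedmontese and -0.545 in Wagyu, and from 195 to 280 days it was -0.548 in Piedmontese and 0.558 in Wagyu. These fetal steps join ages of opposite dye balance. From 7 to 12 months it was -0.082 in Piedmontese and 0.195 in Wagyu, from 20 to 25 months -0.036 in Piedmontese and 0.21 in Wagyu, and from 25 to 30 months 0.381 in Piedmontese and -0.017 in Wagyu.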

How the results depend on the processing

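The age comparisons hold the cross as a term and the cross by stage values are differences within an age, so both are paired through the design, and no further block by replicate was possible with 1 column for each cross and age. No share of all rows was computed under an alternative, so the counts below stand without one. The prenatal counts depended on scaling. The reported 4 higher genes became 54 with centred columns and 1 to 3 with a column left out, and the 5 lower genes became 44 with quantile normalisation, 3 with centred columns and 4 to 17 with a column left out. RPS9 had -0.105 (adjusted p = 0.607) before birth with quantile normalisation, the reverse of its reported sign. At birth 0 genes were higher and 23 to 54 lower with a column left out, lowest without Wagyu at 280 days or 3 months. From 3 to 30 months 0 to 1 were higher. Over the stage means 2 were higher with quantile normalisation and 2 with centred columns, RPS27 (0.21 and 0.38) joining RPS27L. For the crosses 1 gene, RPL22, was lower at the postnatal ages alone, the alternative added after the values were seen. Cross by stage gave 0 with a trended robust prior and 0 to 1 with an age left out, and 1 with columns centred on the mean of the members. Among values of single genes named by the naming rule, under alternatives, 201 kept direction and side of the threshold, 18 no longer passed and 1 reversed. RPS21 and RPS26, whose falls before birth changed sign with centred columns, were not named by that rule. Among counts 219 stayed within 1.5 times and 37 did not, and among family medians 56 moved by less than the spread and 18 by more. The cause was not tested. Signal over background is not in the table, which limits RPL10L and RPL22, the dimmest of the 59 genes. RPL7, RPL37A and RPL39 were also among the dim rows, with means under 12.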
